A study of Mus musculus with 48 samples.

Results

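The erythroid miRNAs mmu-miR-451, mmu-miR-144 and mmu-miR-486 were examined in the brains of Tg2576 and wild-type (WT) mice. The members were chosen by name on the miRNA array, which carried 1080 miRNA names, of which 1023 were mouse miRNAs and 293 of those were detected on at least 12 of the 24 arrays. Of the 3 members, 2 were analysed here. mmu-miR-451 was well above background on all 24 arrays and mmu-miR-144 on 6 of 24. mmu-miR-486 was not analysed here.

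The samples were cortices and whole brains of male mice at 10 and 17 months of age, with 3 miRNA arrays and 3 mRNA arrays in each of the 8 groups of genotype, tissue and age. The WT mice were C57BL/6J. The Tg2576 mice, strain label Tg(APPSWE)2576Kha, carry a transgene for the Swedish mutant of the human amyloid precursor protein driven by the hamster prion protein promoter. Total RNA, small RNA included, was taken from the tissue, and whether blood was washed out of the brains before RNA extraction is not given in the sources used here. The labels do not say whether a cortex and a whole brain with the same replicate number came from 1 mouse, so the p-values measure the spread between these arrays, which may be partly technical.

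miR-451 and miR-144 are made from 1 primary transcript that the transcription factor GATA1 switches on in developing red blood cells. miR-451 is unusual in that Argonaute 2, and not Dicer, cuts its short hairpin, and it is among the most abundant miRNAs of mature red cells, which have lost their nucleus but keep haemoglobin mRNA and small RNA for some time. miR-486, from an intron of the ankyrin gene Ank1, is also abundant in red cells. In tissue with blood in its vessels these miRNAs are measured together with those of the tissue itself, and in such bulk RNA fewer red cells and less RNA per red cell cannot be told apart.

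The mature sequences are shown first because they identify the molecules that the probes are named for, and the seed, bases 2 to 8 from the 5′ end, is in capitals. They were copied from RefSeq for the mouse build GRCm38.p6, where 2 of the 3 members had a mature sequence. The array name miR-451 corresponds to mmu-miR-451a (chr11:78073186-78073207, plus strand), miR-144 to mmu-miR-144-3p (chr11:78073047-78073066, plus strand) and its passenger strand miR-144* to mmu-miR-144-5p (chr11:78073010-78073032, plus strand).
miR-451: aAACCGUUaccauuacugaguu
miR-144: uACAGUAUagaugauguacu
miR-144*: gGAUAUCAucauauacuguaagu
The 3 seeds differ from one another, and none of the 1679 mouse mature miRNAs in the RefSeq table shares any of them with these miRNAs.

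The hairpins show how the members sit side by side and how differently the mature strand lies in each, with the mature miR-451 or miR-144 in capitals. Mir144 (chr11:78073005-78073070, plus strand, 66 bases) lies upstream of Mir451a (chr11:78073170-78073241, plus strand, 72 bases), with 99 bases between them.
Mir144 hairpin: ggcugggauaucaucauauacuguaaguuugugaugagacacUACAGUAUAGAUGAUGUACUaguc
Mir451a hairpin: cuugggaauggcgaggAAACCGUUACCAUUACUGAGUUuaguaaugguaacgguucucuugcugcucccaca
miR-144 takes bases 43 to 62 of its hairpin, on the 3′ arm, and miR-144* takes bases 6 to 28, on the 5′ arm. miR-451 takes bases 17 to 38, so that it runs from the 5′ arm into the loop.

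Signal was expressed relative to the scale of its array, which is the 75th percentile over the 402 probes whose signal clearly exceeded background on each of the 24 miRNA arrays. A log2 value of 0 therefore equals the scale, and a percent gives the same quantity on a linear axis. The scale itself lay between 351 and 1604 intensity units, no spot was saturated, and between 241 and 386 miRNA names were well above background per array. The tissue labels were borne out by markers of regions outside the cortex, since the cerebellar genes Pcp2, Gabra6 and Cbln1 were higher in whole brain by 2.05, 3.44 and 1.03 on the log2 scale and the dopamine transporter gene Slc6a3 by 3.02. The cortical genes Tbr1, Neurod6, Slc17a7 and Fezf2 differed by -0.20 to 0.02, and Ttr and Omp by -0.23 and 0.30.

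Of the miRNAs detected on every array, miR-451 varied the most. Its log2 signal spanned 4.83 over the 24 arrays, a 28.4-fold range, with an SD of 1.06. Among the 228 other mouse miRNAs that were well above background on all 24 arrays, the median SD was 0.14, the highest was 0.71, and 0 exceeded that of miR-451.

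In the cortex of 10-month-old WT mice, miR-451 was at -1.40, -0.39 and 0.85 on the log2 scale in replicates 1, 2 and 3. In Tg2576 cortex at 10 months it was at -1.06, -1.49 and -1.17. Replicates 2 and 3 of the WT mice were above all 3 Tg2576 arrays and replicate 1 lay among them, so the genotypes overlapped, and the WT arrays spread more widely.

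In the cortex of 17-month-old WT mice miR-451 was at -1.83, -2.13 and -2.08. In the cortex of 17-month-old Tg2576 mice it was at -2.09, -3.61 and -1.91. All 6 of these arrays were below all 6 arrays of the 10-month-old cortex, and 1 of them, Tg2576 replicate 2, stood far below the others.

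Whole brain showed the same arrangement, array by array. The 10-month-old WT values were -1.34, -0.35 and 1.22, and the 10-month-old Tg2576 values were -0.95, -1.31 and -0.95. The 17-month-old WT values were -1.59, -1.93 and -2.04, and the 17-month-old Tg2576 values were -1.89, -3.17 and -1.77. Replicate 3 of the 10-month-old WT mice was again the highest and replicate 2 of the 17-month-old Tg2576 mice again the lowest.

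**Figure D1:**
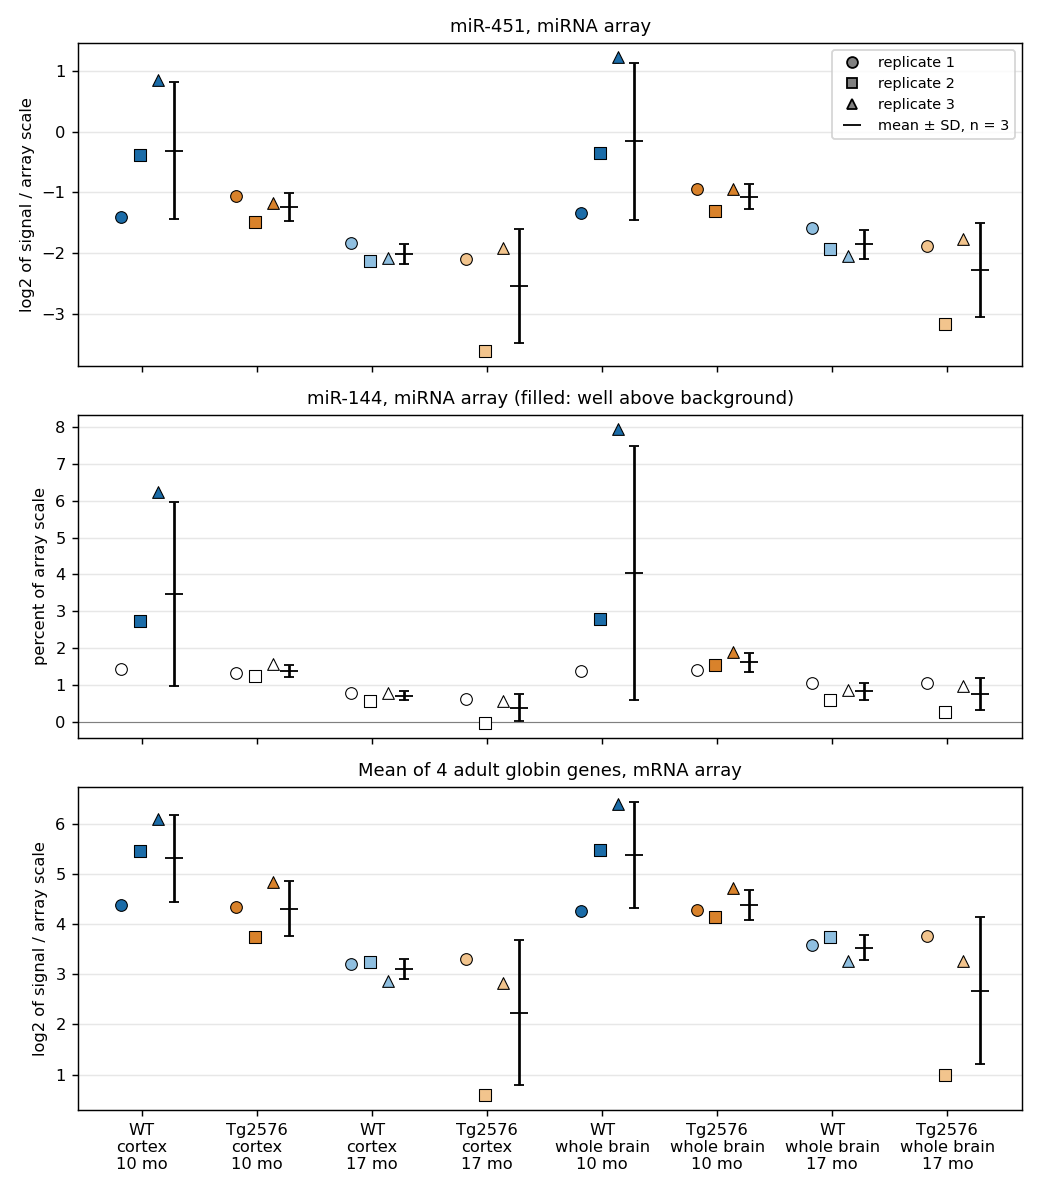
Log2 signal of miR-451 (top), signal of miR-144 in percent of the array scale (middle, filled where well above background) and mean log2 signal of 4 adult globin genes on the mRNA array (bottom), each relative to its array's scale, in the 8 groups of 3 arrays, with group mean ± SD. Shapes mark replicate numbers and colours mark genotype and age. WT replicate 3 at 10 months is highest in both tissues in all panels, and Tg2576 replicate 2 at 17 months is lowest.

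Ordered by their means (n = 3 each, ± SD, log2 scale), the groups were WT whole brain at 10 months with -0.15 ± 1.29, WT cortex at 10 months with -0.31 ± 1.13, Tg2576 whole brain at 10 months with -1.07 ± 0.21, Tg2576 cortex at 10 months with -1.24 ± 0.23, WT whole brain at 17 months with -1.85 ± 0.24, WT cortex at 17 months with -2.01 ± 0.16, Tg2576 whole brain at 17 months with -2.28 ± 0.78 and Tg2576 cortex at 17 months with -2.54 ± 0.93. Neighbours in this order overlapped, with 1 exception. The lowest array of Tg2576 cortex at 10 months, at -1.49, was above the highest array of WT whole brain at 17 months, at -1.59. The order therefore separated the 4 groups of 10 months from the 4 groups of 17 months and nothing within them.

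The signal of miR-451 came from 2 probes of 20 spots each, whose raw intensities ran from 28.7 to 2166. The probes followed each other with r = 0.9997 over the 24 arrays, and the median coefficient of variation between spots of a probe was 3.92% and 4.16%.

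miR-144, the clustered partner, was much closer to background, and its values are given in percent of the array scale. In WT cortex at 10 months it was at 1.43%, 2.74% and 6.24%, of which replicates 2 and 3 were well above background. In Tg2576 cortex at 10 months it was at 1.32%, 1.26% and 1.58%, and none of these was well above background. The order of the 3 WT arrays was that of miR-451 on the same arrays.

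In whole brain of 10-month-old WT mice miR-144 was at 1.38%, 2.81% and 7.93%, with replicates 2 and 3 again well above background. In whole brain of 10-month-old Tg2576 mice it was at 1.41%, 1.55% and 1.91%, with replicates 2 and 3 well above background, on arrays that had the 2 highest scales of the series, 1532 and 1604. These 6 arrays were the only ones on which miR-144 was well above background.

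At 17 months miR-144 was not well above background on any array. Its 6 cortex values lay at 0.78%, 0.59% and 0.80% in WT mice and 0.62%, -0.02% and 0.59% in Tg2576 mice. Its 6 whole-brain values lay at 1.05%, 0.60% and 0.88% in WT mice and 1.07%, 0.27% and 0.98% in Tg2576 mice. A value below 0 arises when the background subtracted from a spot exceeds its signal.

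The 2 probes of miR-144 followed each other with r = 0.996, with median coefficients of variation of 31.4% and 32.0% between spots. On the percent scale, values below background included, miR-144 followed miR-451 over the 24 arrays with r = 0.996 and rho = 0.951. Both measures come from the same arrays and share their labelling and scale. The passenger strand miR-144* was well above background on 2 of 24 arrays, WT replicate 3 at 10 months, at 1.08% in cortex and 1.23% in whole brain, which were the arrays with the highest miR-144. The passenger strand miR-486* was well above background on 0 of 24 arrays.

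Each of the 12 comparisons of genotype, age or tissue used the 6 miRNA arrays of its 2 groups and limma's moderated test with Benjamini-Hochberg adjustment over all miRNAs tested. For these tests a log2 floor of -5.67, which is 1.97% of the array scale, replaced any lower value. No member passed the adjusted threshold of 0.05 in any comparison by limma, while 4 values of miR-451 had an unadjusted p under 0.05, all of them between ages. The methods' t-test on the same values gave 0 members at an unadjusted p under 0.05.

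miR-451 was lower in Tg2576 than in WT mice on average in both tissues and at both ages, and the genotypes overlapped each time. The log2 difference, Tg2576 minus WT, was -0.93 (SE 0.56, limma adjusted p = 0.907) in cortex and -0.91 (SE 0.63, limma adjusted p = 0.805) in whole brain at 10 months. It was -0.52 (SE 0.44, limma adjusted p = 0.605) in cortex and -0.43 (SE 0.39, limma adjusted p = 0.882) in whole brain at 17 months. The share of all miRNAs called was 0% in each of these 4 comparisons. At 17 months 1 array per tissue carried the difference: without Tg2576 replicate 2 it was 0.01 in cortex and 0.02 in whole brain. At 10 months the difference became -0.34 in cortex and -0.23 in whole brain without WT replicate 3, and -1.47 and -1.51 without WT replicate 1. Within the 1 slide that held both genotypes at 10 months it was -0.34 in cortex, where WT replicate 3 was on another slide, and -0.79 in whole brain, where 3 WT arrays stood against 1 Tg2576 array.

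Age gave larger differences. In cortex miR-451 was lower at 17 than at 10 months by 3.26-fold in WT mice (log2 difference -1.70, SE 0.54, limma adjusted p = 0.626) and by 2.46-fold in Tg2576 mice (-1.30, SE 0.47, limma adjusted p = 0.158). In whole brain it was lower by 3.25-fold in WT mice (-1.70, SE 0.62, limma adjusted p = 0.459) and by 2.31-fold in Tg2576 mice (-1.21, SE 0.39, limma adjusted p = 0.597). None of these passed the adjusted threshold, and all miRNAs called amounted to 0% in WT cortex, 8.65% in Tg2576 cortex, 0.299% in WT whole brain and 0% in Tg2576 whole brain.

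The 10-month and 17-month arrays did not overlap in any of the 4 comparisons, with miR-451 lower at 17 months. Of all miRNAs with a signal above the floor, 5.97% were likewise separated downward in WT cortex, 17.4% in Tg2576 cortex, 8.21% in WT whole brain and 1.48% in Tg2576 whole brain. Without replicate 3 of the 10-month-old WT mice the age difference was -1.12 in cortex and -1.01 in whole brain, and without replicate 2 of the 17-month-old Tg2576 mice it was -0.76 in both tissues. Within 1 slide the difference was -1.09 in WT cortex and -1.15 in Tg2576 whole brain. In Tg2576 cortex and WT whole brain each age was on slides of its own, so that slide and age cannot be told apart. The WT whole-brain difference was -1.71 with the slide as a random block, which cannot separate slide from age there. The miRNA array scale also moved with age in cortex, from 534 to 852 at 10 months to 351 to 598 at 17 months. In whole brain it was 495 to 1604 and 582 to 969. The part of the scale in the age difference was not tested.

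With both genotypes in 1 model per tissue, a fit added after the data were seen, miR-451 was 2.83-fold lower at 17 months in cortex (-1.501, SE 0.38, limma adjusted p = 0.0816) and 2.74-fold lower in whole brain (-1.45, SE 0.39, limma adjusted p = 0.146). All miRNAs called in these fits amounted to 0.946% in cortex and 0% in whole brain. All 6 arrays of 17 months were below all 6 of 10 months in each tissue. A two-sided exact permutation of ages within genotype gave p = 0.005 in each, the smallest its 400 regroupings allow. That p is for 1 miRNA whose separation had already been seen, and it was not adjusted over all miRNAs. The share of all miRNAs separated in this way over both genotypes is not given here, so the separation has no background beside it. The genotype effect did not differ detectably between ages, with a difference of 0.41 (limma adjusted p = 0.923) in cortex and 0.49 (limma adjusted p = 1) in whole brain. In cortex the adjusted p fell under the threshold, to 0.0431, without WT replicate 3 at 10 months, where the fitted difference was -1.22.

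Tissue made little difference to the group means. In no comparison did cortex and whole brain share a miRNA slide, so slide and tissue cannot be told apart. The log2 difference, whole brain minus cortex, was 0.16 (SE 0.83, limma adjusted p = 1) in WT mice and 0.17 (SE 0.15, limma adjusted p = 0.822) in Tg2576 mice at 10 months. It was 0.16 (SE 0.14, limma adjusted p = 0.743) in WT mice and 0.26 (SE 0.60, limma adjusted p = 0.974) in Tg2576 mice at 17 months. All miRNAs called amounted to 2.83% and 0.267% at 10 months and 1.8% and 7.58% at 17 months, in the same order.

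miR-144 entered 7 of the 12 comparisons, with most of its arrays at the floor. In Tg2576 whole brain between ages, and in Tg2576 mice between tissues at 10 months, every array was at the floor and nothing was tested. The values well above background there, 1.55% and 1.91%, lay under the floor of 1.97%. In the other comparisons its adjusted p by limma was 0.782 or more. miR-144 was well above background in 1 group only in 5 comparisons. There a ratio of geometric means was taken, with each array of the other group at no less than its own lowest well-above-background signal. The ratio exceeded 1 in 2 of them. It was 1.32 for WT over Tg2576 cortex at 10 months, where the means in percent of the scale were 3.47 ± 2.49 and 1.39 ± 0.167 (SD, n = 3). The genotypes overlapped there, with WT replicate 1 at 1.43% and Tg2576 replicate 3 at 1.58%. For 10 over 17 months in WT whole brain the ratio was 1.83, where the means were 4.04 ± 3.44 and 0.842 ± 0.229. Each bright group was well above background on 2 of its 3 arrays, and replicate 1 entered at its measured value. The mean was drawn up by replicate 3.

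The haemoglobin genes were read from the mRNA array with the same label. Haemoglobin carries oxygen in red cells and is built from alpha chains, encoded by Hba-a1 and Hba-a2, and beta chains, encoded here by Hbb-b2 and Hbb-bt. Of 12 listed haemoglobin genes, 9 had a matched probe and 7 were detected on 12 or more arrays. The embryonic genes Hba-x and Hbb-y were well above background on none. Signal from near-identical globin paralogs cannot be assigned to 1 copy with certainty, since a probe of 1 copy may also bind another.

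The mean of the 4 adult globin genes, a choice made after their values were seen, is given on the log2 scale relative to the 75th percentile of the mRNA array. In cortex it was 4.38, 5.46 and 6.10 in WT and 4.35, 3.74 and 4.83 in Tg2576 mice at 10 months, and 3.20, 3.25 and 2.87 in WT and 3.30, 0.59 and 2.82 in Tg2576 mice at 17 months. In whole brain it was 4.27, 5.48 and 6.39 in WT and 4.29, 4.14 and 4.72 in Tg2576 mice at 10 months, and 3.59, 3.75 and 3.26 in WT and 3.76, 1.0 and 3.27 in Tg2576 mice at 17 months. The highest and lowest arrays carried the same labels as for miR-451. The mean spanned 5.80 on the log2 scale, a 55.7-fold range.

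miR-451 rose and fell with adult globin mRNA across the 24 labels, although the values came from separate arrays with separate labelling. Pearson's r was 0.955 (permutation p = 1e-05, adjusted 9.5e-05) and Spearman's rho was 0.917 (permutation p = 1e-05, adjusted 9.5e-05). The smallest p that 100000 resamples can give is 1e-05, and p-values were adjusted over 19 relations. Without the 2 labels farthest from the median globin mean r was 0.947.

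Within tissue, r was 0.959 over the 12 cortex labels and 0.951 over the 12 whole-brain labels, with rho of 0.867 and 0.930. With the mean of each of the 8 groups removed, r was 0.884 (permutation p = 0.00053, adjusted 0.002) and rho 0.832 (permutation p = 0.00084, adjusted 0.0023). Over the 12 means of cortex and whole-brain arrays with the same number, which lowers n if those came from 1 mouse, r was 0.958 (permutation p = 2e-05, adjusted 0.00013). With the means of their 4 groups removed, these 12 means gave r = 0.889 (permutation p = 0.013, adjusted 0.021), and 0.771 without the 2 farthest. Within groups miR-451 spread most in WT mice at 10 months (SD 1.13 and 1.29) and Tg2576 mice at 17 months (0.93 and 0.78). The relation was thus not only between the groups, and within them it drew mostly on those with the wider spread.

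Within 1 age it was carried by fewer arrays. At 10 months r was 0.928 over the 6 cortex labels and 0.965 over the 6 whole-brain labels (exact permutation p = 0.0069, adjusted 0.012 in each), and without the 2 farthest labels 0.875 and 0.652. At 17 months r was 0.957 in cortex (exact permutation p = 0.12) and 0.948 in whole brain (exact permutation p = 0.062), with rho of 0.086 and 0.543. Without the 2 farthest labels these became -0.102 and 0.247, so the relation at 17 months rested on them, Tg2576 replicate 2 among them.

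**Figure D2:**
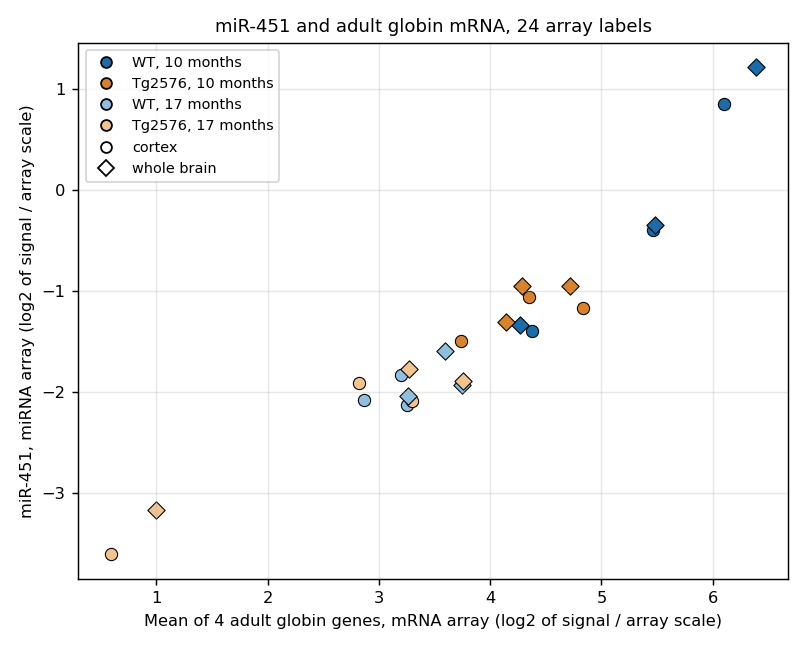
Log2 signal of miR-451 on the miRNA array against the mean log2 signal of 4 adult globin genes on the mRNA array, each relative to its array's scale, for the 24 labels. The points run from Tg2576 replicate 2 at 17 months (0.59 globin, -3.61 miR-451 in cortex) to WT replicate 3 at 10 months (6.39 globin, 1.22 miR-451 in whole brain), with r = 0.955.

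For miR-144, set to the floor where it was below it, r with the globin mean was 0.632 over the 24 labels (permutation p = 0.0031, adjusted 0.0065) and rho 0.649 (permutation p = 1e-05, adjusted 9.5e-05). It was 0.615 in cortex (permutation p = 0.069) and 0.659 in whole brain (permutation p = 0.076), and 0.495 after removal of the group means (permutation p = 0.055). Most arrays held the same floor value, which limits r. On the percent scale without the floor, rho was 0.943 over the 24 labels.

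Haemoglobin genes passed the threshold between ages and in no other comparison. Of 28 values for the 7 detected haemoglobin genes in the 4 age comparisons, 6 were called by limma, all lower at 17 months. Over all genes in these comparisons 22.6% of the values were called, 7.77% lower and 14.9% higher. Genotype and tissue each gave 0 of 28, with 2 and 9 values at an unadjusted limma p under 0.05. At 10 months Hba-a1 and Hba-a2 differed between whole brain and cortex by -0.49 and -0.27 in WT mice and by -0.19 and -0.09 in Tg2576 mice, where the differences of miR-451 were above 0. Hbb-b2 and Hbb-bt lay above 0 like miR-451, at 0.57 and 0.45 in WT mice and 0.44 and 0.14 in Tg2576 mice. Of all genes tested, those called between genotypes amounted to 0% in each of the 4 comparisons. Between tissues they amounted to 0.0928% and 11% in WT mice and 0% and 1.37% in Tg2576 mice, at 10 and 17 months. Cortex and whole brain shared no mRNA slide in any of these, so slide and tissue cannot be told apart.

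In WT cortex 4 of 7 haemoglobin genes were called lower at 17 than at 10 months. Of all genes 13.7% were called in either direction, 564 of 16160 of them lower. Hba-a1 fell by 2.15 on the log2 scale (SE 0.44, limma adjusted p = 0.0312), Hba-a2 fell by 1.98 (SE 0.37, limma adjusted p = 0.0252) and Hbb-b2 fell by 2.31 (SE 0.44, limma adjusted p = 0.0267). Hbb-bt fell by 2.395 (SE 0.43, limma adjusted p = 0.0237). The 3 others, Hbb-bh1, Hbq1a and Hbq1b, were low, differed by -0.04, 0.18 and -0.10, and did not follow miR-451 over the arrays (r = -0.27, 0.18 and 0.10). In the same comparison miR-451 differed by -1.70 and was not called. The 4 calls needed all 6 arrays: leaving out any 1 WT cortex array of either age brought the 6 haemoglobin calls of the 12 comparisons down to 2.

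In WT whole brain 2 of 7 were called lower. Of all genes 35.4% were called in either direction, 2093 of 15851 of them lower. Hbb-b2 fell by 2.31 (SE 0.48, limma adjusted p = 0.0136) and Hbb-bt fell by 2.58 (SE 0.49, limma adjusted p = 0.0106). The alpha genes Hba-a1 and Hba-a2 differed there by -1.21 and -1.29 (limma adjusted p = 0.141 and 0.0851). In WT whole brain and Tg2576 cortex the ages were on separate mRNA slides, so slide and age cannot be told apart for any gene. In Tg2576 mice 0 of 7 were called in either tissue, against 16.3% of all genes in cortex and 25.6% in whole brain, although the 4 adult genes differed by -1.77 to -2.35 in cortex and by -1.13 to -2.19 in whole brain. Their median differences over the 7 genes were -1.98, -1.77, -1.21 and -1.13 in WT cortex, Tg2576 cortex, WT whole brain and Tg2576 whole brain, against medians of 0.03, 0.04, 0.05 and 0.03 over all genes tested.

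**Figure D3:**
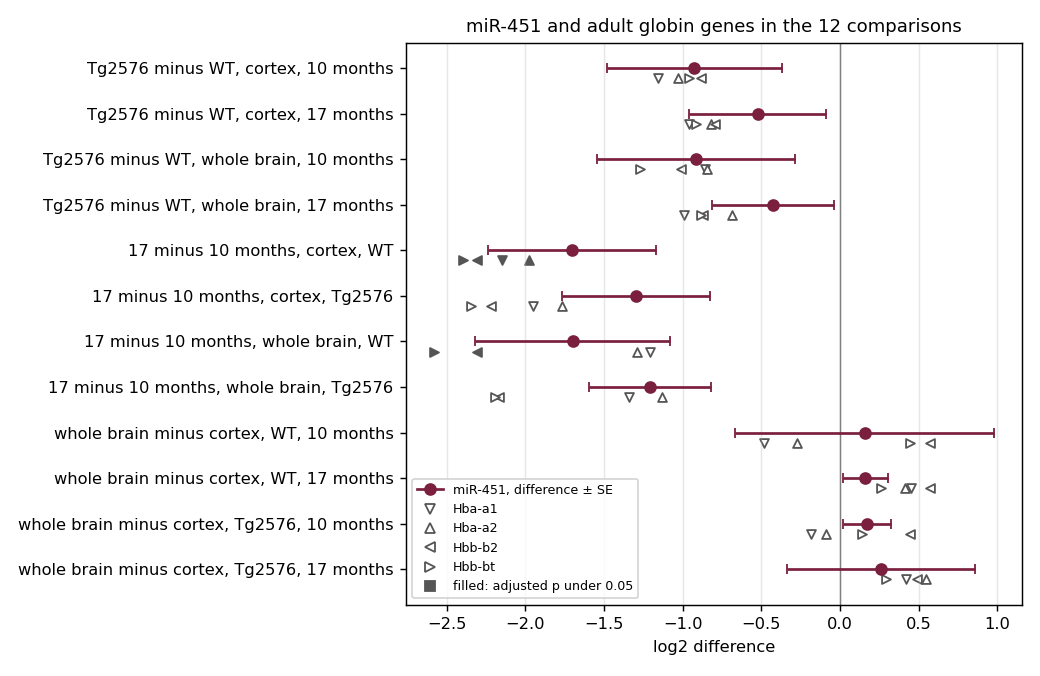
Log2 differences of miR-451 (circles, bars are ± 1 SE) and of the 4 adult globin genes (triangles, filled where limma's adjusted p is under 0.05) in the 12 comparisons of 3 against 3 arrays. All 5 lie below 0 in the genotype and age comparisons. The 6 filled triangles are in WT mice between ages, at -1.98 to -2.58, and no miR-451 value passed the threshold.

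With both genotypes in 1 model, the 4 adult genes and Alas2, which encodes the first enzyme of haem synthesis in red cells, were lower at 17 months in both tissues. In cortex Hbb-bt differed by -2.37 (limma adjusted p = 0.00208) and Hba-a1 by -2.05 (limma adjusted p = 0.00493), and in whole brain by -2.39 (limma adjusted p = 0.00247) and -1.28 (limma adjusted p = 0.0459). Alas2 differed by -1.70 (limma adjusted p = 0.0146) and -1.49 (limma adjusted p = 0.0191). All genes called amounted to 35.1% in cortex and 44.9% in whole brain.

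Cortex and whole-brain arrays of the same group and number held closely matching levels of miR-451. Whole brain was higher in 12 of 12 such pairs, by 0.03 to 0.44 on the log2 scale (mean 0.19 ± 0.12 SD, 1.14-fold), while the 12 cortex arrays had an SD of 1.08. Of the 228 other miRNAs well above background on all arrays, 1.75% were higher in whole brain in all 12 pairs. The globin mean was higher in whole brain in 9 of 12 pairs, by 0.25 ± 0.24 (mean ± SD). The arrays of each pair were on different slides in both assays, so slide and tissue cannot be told apart.

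After removal of the group means, the deviations of miR-451 in cortex and whole brain correlated with r = 0.984 over the 12 pairs (permutation p = 0.0024, adjusted 0.0057) and rho = 0.972 (permutation p = 0.0032, adjusted 0.0068), and r was 0.982 without the 2 farthest pairs. This was the highest of 227 miRNAs, which had a median of 0.184, and the next, miR-409-3p, reached 0.905. For the globin mean r was 0.982 (permutation p = 0.00078, adjusted 0.0021). Among 15764 genes, with a median of 0.02, Hbb-bt ranked 1 (r = 0.993), Hbb-b2 ranked 2 (0.987), Alas2 ranked 6 (0.957), Hba-a2 ranked 7 (0.953) and Hba-a1 ranked 9 (0.946).

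Levels of miR-451 and of the adult globin genes were thus among the most alike in arrays that shared a number, together with the genes Ctla2a (r = 0.976), Rbm4 (0.966) and Trap1 (0.963). Over all 228 miRNAs, the profiles of same-numbered arrays correlated above 0.1 in 5 of 12 pairs. The labels leave it unstated whether same-numbered arrays came from 1 mouse.

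**Figure D4:**
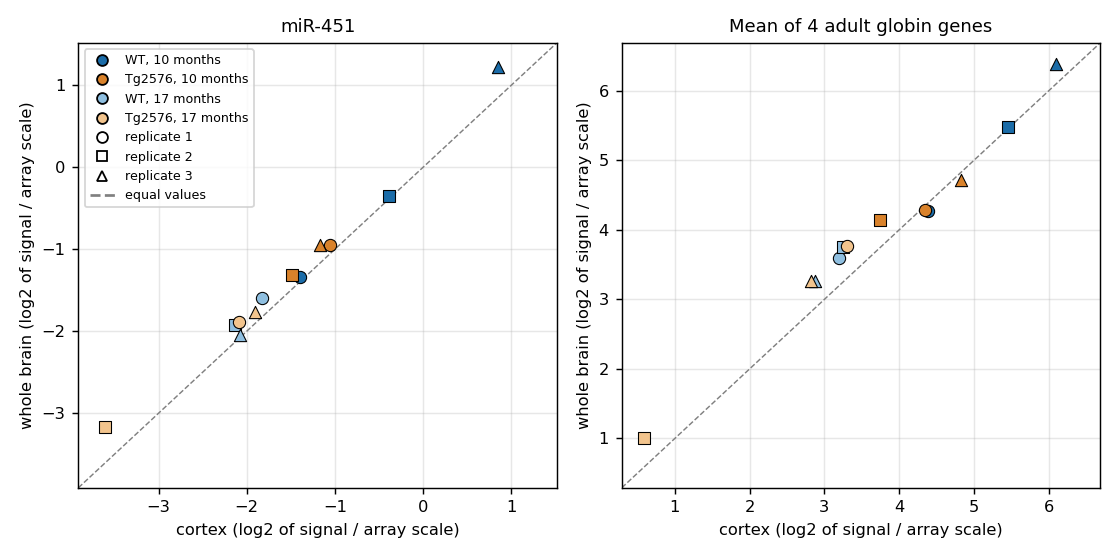
Whole brain against cortex for the 12 pairs of arrays with the same genotype, age and replicate number, for miR-451 (left) and the mean of 4 adult globin genes (right), in log2 signal relative to the array scale. The dashed line marks equal values. All 12 miR-451 points lie above it, by 0.03 to 0.44.

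miR-144 was detected on too few arrays to enter the ranking of miRNAs by likeness to miR-451. Its r of 0.996 was on the percent scale, whereas the ranking used log2 values with the floor, so they are not directly comparable. Among 269 other mouse miRNAs detected on at least 12 arrays and varying above the floor, r with miR-451 over the 24 arrays had a median of -0.175 and ranged from -0.794 to 0.738. The 5 highest were miR-322 (0.738), miR-3107 (0.722), miR-25 (0.523), miR-130b (0.522) and miR-375 (0.507), and none of the 269 exceeded 0.8. RefSeq lists Mir3107 also under the name mir-486b, within the Mir486 gene and so within Ank1, and whether its probes also bind other products of that locus is not given in the sources used here. These are correlations over arrays that share groups and scale, given as a description.

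The miRNAs at the top of this ranking spanned far less than miR-451. miR-322 had an SD of 0.15 on the log2 scale and spanned 0.59. miR-3107 was well above background on 17 arrays, lay between 0.94% and 3.08% of the scale, and spanned 0.64 above the floor. Its median log2 value over the arrays was the floor, -5.67. In cortex its highest values were the WT replicates at 10 months, 2.26%, 2.31% and 2.60%. In whole brain WT replicate 3 at 10 months was highest, at 3.08%, followed by WT replicate 3 at 17 months, at 2.59%. WT replicate 2 and Tg2576 replicate 3 at 10 months came next there, at 2.57% and 2.56%. miR-3107 correlated with the globin mean with r = 0.653 (permutation p = 0.00073, adjusted 0.0021) over the 24 labels, but with r = 0.291 (permutation p = 0.12) once the group means were removed.

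Of 3 other miRNAs listed as abundant in red cells, all expressed in many tissues, miR-25 had r = 0.52 with miR-451, the third highest of the 269, with an SD of 0.08. miR-16 had r = -0.04, with an SD of 0.16, and miR-92a r = -0.13, with an SD of 0.13. The leukocyte miRNAs miR-223, miR-142-3p and miR-150 had r of 0.21, -0.08 and 0.00, while miR-142-5p was well above background on 3 arrays and miR-155 on 0. The endothelial miRNAs miR-126-3p and miR-126-5p had r of -0.39 and -0.24.

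**Figure D5:**
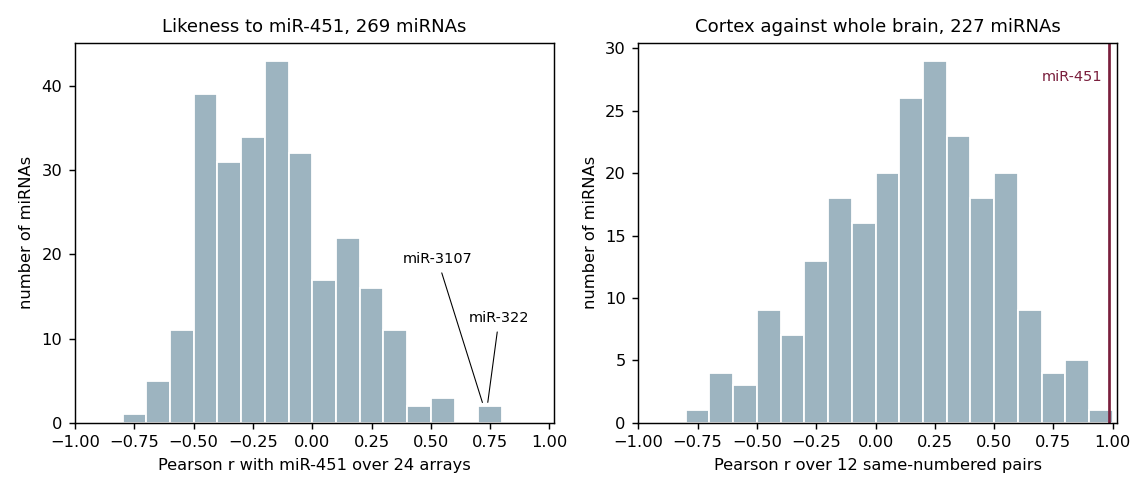
Left, Pearson r of 269 miRNAs with miR-451 over 24 arrays, with miR-322 (0.738) and miR-3107 (0.722) marked. Right, Pearson r between cortex and whole brain over 12 same-numbered pairs, after removal of group means, for 227 miRNAs, with miR-451 (0.984) marked by the vertical line at the upper end.

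The genes most like miR-451 were erythroid. Among 15764 genes detected on 12 or more mRNA arrays, the 5 with the highest r over the 24 labels were Alas2 (0.969), Hbb-b2 (0.948), Hbb-bt (0.947), Hba-a2 (0.945) and Hba-a1 (0.941), each spanning 5.06 to 6.34 on the log2 scale. They were followed by Pdzph1 (0.859), the annexin gene Anxa3 (0.841), the exonuclease gene Isg20 (0.839), the zinc finger gene Zfp960 (0.838) and Etf1 (0.833), which encodes a translation release factor and spanned 0.51. Over all genes the median r was -0.075, and 11.3% exceeded 0.5.

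For miR-144 the 10 genes with the highest r were Isg20 (0.814), Zdhhc22 (0.743), Alas2 (0.726), Fam13b (0.719), Vmn2r121 (0.705), Tsc22d3 (0.701), Fpr1 (0.684), Adgrl4 (0.652), Ctla2a (0.648) and Hba-a1 (0.645). Here r was weighted by the few arrays above the floor. Alas2 and Hba-a1 were the erythroid genes among them, and Isg20, Alas2 and Hba-a1 were also among the 10 genes most like miR-451.

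Alas2 itself, array by array, was at -2.02, -0.75 and 0.12 in WT cortex at 10 months and at -2.88, -2.84 and -2.92 at 17 months, on the log2 scale. In Tg2576 cortex it was at -1.84, -2.79 and -1.55 at 10 months and at -2.44, -4.98 and -2.96 at 17 months. The highest and lowest arrays were those of miR-451. Its difference between ages in WT cortex, -1.996, had a limma adjusted p of 0.0501.

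Of the 21 other erythroid genes listed, Alas2 included, 20 had a probe and 12 were detected on 12 or more arrays, of which 3 had r over 0.5 with miR-451. Besides Alas2 these were Slc4a1, encoding the red-cell anion exchanger (0.633), and Fech, encoding the enzyme that completes haem (0.572). Gata1, Rhag and Kel, which mark red-cell precursors or the red-cell membrane, were well above background on no array. Ank1, ankyrin of the red-cell membrane skeleton and the host gene of miR-486, had r = -0.45. In the 4 age comparisons 9 of 48 values of this list were called, 4 higher and 5 lower at 17 months, which at 18.8% was no more than the 22.6% over all genes. In WT whole brain 7 of 12 were called by limma, against 35.4% of all genes, 4 lower and 3 higher. Slc4a1 fell there by 0.86, Klf1 by 0.65, Hemgn by 0.54 and Fech by 0.24. Rhd rose by 0.57, Epor by 0.54 and Tspo2 by 0.26.

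Markers of other blood cells and of vessels were read in the same way. Of the leukocyte list 0 of 8 detected genes had r over 0.5 with miR-451, with a range of -0.169 to 0.212, and 4 of 33 values were called between ages (12.1%, against 22.6% over all genes), 2 in each direction. Of the platelet list 1 of 4 had r over 0.5, Pf4 (0.718), a platelet chemokine. Between ages 3 of 14 platelet values were called (21.4%, against 22.6% over all genes), 2 lower and 1 higher. Pf4 fell by 0.86 in Tg2576 cortex and by 0.49 in WT whole brain, and Gp1bb rose by 0.49 in WT cortex. Of the endothelial list 0 of 6 had r over 0.5, and 11 of 24 values were called between ages, 10 of them higher at 17 months (41.7%, against 14.9% over all genes). Cldn5, a tight-junction gene of brain vessels, had r = -0.66 and rose with age by 0.69 and 0.57 in WT and Tg2576 cortex and by 0.90 and 0.92 in whole brain. The part of vessel content in the age difference of miR-451 was not tested.

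The genes that process miRNAs had r of -0.633 (Ago2, the slicer that matures miR-451), -0.467 (Dicer1), -0.549 (Drosha) and 0.083 (Dgcr8). Of the listed targets, the miR-451 targets Ywhaz and Cab39 had r of 0.309 and 0.409 with miR-451, the miR-144 target Nfe2l2 0.5, and the miR-486 target Foxo1 -0.703. Between ages, by limma, Foxo1 rose by 0.29 in Tg2576 cortex, 0.80 in WT whole brain and 0.51 in Tg2576 whole brain, and Ywhaz fell by 0.24 in WT whole brain. None of these 4 genes was called between genotypes.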

How the data were processed

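Total RNA was hybridized to 24 miRNA arrays and 24 mRNA arrays of 1 colour, with 1 sample on each. The authors read them with Agilent Feature Extraction 10.7.3.1, per the processing notes, and deposited spot intensities after background subtraction, without scaling between arrays, together with log2 values of their own for each assay. Groups came from the sample labels. The members and gene lists were chosen with earlier results of these data known.

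Spots marked as outliers were left out, the spots of a probe were averaged, and probes of a miRNA were averaged. The result was scaled by its array's 75th percentile, computed from 402 probes, taken to log2 and floored at -5.67. For mRNA, the log2 intensity minus the 75th percentile of its array was used, with 1 probe per gene, the one with the highest mean. Symbols came from RefSeq transcripts for GRCm38.p6, which matched 26056 of 55681 probes (46.8%, 19752 symbols). No coordinates of the mRNA probes were used. Features detected (well above background) in 2 or more arrays of either group were tested with limma 3.58.1 in R 4.3.3 (data.table, version 1.17.8), Benjamini-Hochberg threshold 0.05, on 6 arrays per comparison. Where every compared array was at the floor, the difference was set to 0 and p to 1. Scripts were tested on simulated data. Figures were drawn with matplotlib 3.10.9.

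Named were the members, their passenger strands, the 5 miRNAs and 10 genes most like a member by Pearson r, the haemoglobin genes, Ank1 and the listed targets, and further list genes as examples chosen after their values were seen. Some listed genes are not reported here. The number of arrays, 3 per group, limits precision. Alternatives were other scalings and floors, the authors' log2 values, total signal per miRNA, normexp (offset 50) and quantile normalization. Further ones were no filter, 1 model over all 24 arrays, a block for replicate number, each array left out in turn, and the methods' t-test. The arrays were on 4 miRNA slides and 3 mRNA slides. A block for slide was run for the miRNAs only, so the haemoglobin calls were not checked against slide.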

Additional observations from a re-analysis of the deposited data

How the results depend on the processing

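Genotype and tissue comparisons called 0 members under every alternative run. Between ages the count of 0 became 1 with the authors' log2 values (miR-144 in WT cortex, -6.49, limma adjusted p = 0.00436), 1 with the total signal per miRNA (miR-144 in WT cortex, -6.49, limma adjusted p = 0.00323), which set undetected miRNAs very low, and 2 with normexp (miR-451 in WT cortex, -1.24, limma adjusted p = 0.00865, and miR-144 in WT cortex, reversed to 0.47, limma adjusted p = 0.0082). Leaving out each array in turn gave 0 to 0. miR-451 was lower at 17 months under every alternative run, with differences of -2.25 to -1.09 in WT cortex, -1.61 to -0.76 in Tg2576 cortex, -2.29 to -1.01 in WT whole brain and -1.46 to -0.76 in Tg2576 whole brain. In the fit over both genotypes its cortex difference was called with normexp (-1.03, limma adjusted p = 0.0138), with the floor 4 times lower (limma adjusted p = 0.0382) and without WT replicate 3 at 10 months and Tg2576 replicate 2 at 17 months (-0.94, limma adjusted p = 0.0316). The cause of these changes was not tested.

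Differences that were small against their error changed sign. For miR-451, Tg2576 minus WT at 17 months became 0.014 in cortex and 0.023 in whole brain without Tg2576 replicate 2, and ranged over the arrays left out from -0.837 to 0.014 and from -0.678 to 0.023. Whole brain minus cortex in WT mice at 10 months became -0.017 with the authors' values, -0.038 with the slide block, and -0.531 to 0.748 when arrays were left out (-0.387 without WT cortex replicate 1, -0.531 without WT whole brain replicate 3). It became -0.093 in WT mice at 17 months with normexp, and in Tg2576 mice at 17 months -0.43 with the 75th percentile over all probes, -0.027 with normexp and -0.277 without Tg2576 cortex replicate 2 (-0.277 to 0.707 over the arrays left out). For miR-144, Tg2576 minus WT in cortex at 10 months became 0.051 with normexp, and whole brain minus cortex in WT mice at 10 months became -0.337 with the authors' values, -0.18 with the total signal, -0.032 with the slide block, -0.231 without WT cortex replicate 1 and -0.459 without WT whole brain replicate 3 (-0.459 to 0.601 over the arrays left out). The cause was not tested.

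The 6 haemoglobin calls became 10 with all 24 arrays in one model, 2 with the replicate block and 0 with the methods' t-test (9 at an unadjusted p under 0.05), and 2 to 8 when arrays were left out. The count was 2 without any 1 of the 6 WT cortex arrays, of 10 or 17 months. The correlation of miR-451 with the globin mean ranged from 0.898 to 0.969 over its alternatives. That of miR-144 ranged from 0.495 to 0.78 and did not pass the threshold over 12 same-number means (0.637, permutation p = 0.076).

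Replicate numbers shared by cortex and whole brain did not count as pairing over all features, since 5 of 12 pairs of miRNA arrays and 4 of 12 pairs of mRNA arrays correlated above 0.1, and 4 and 5 correlated best with their own number. With the replicate block, miR-451 in Tg2576 mice at 17 months differed by 0.26 between tissues (limma adjusted p = 0.154) and in WT cortex by -1.70 between ages (limma adjusted p = 0.641), and no call of a member changed. The signal over background limits miR-144, which was well above background on 6 arrays.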
